A study of Mus musculus with 6 samples.

Results

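The cells described here are the ionocyte-like cells of the irradiated mouse submandibular gland, a major salivary gland. They were taken from the single-cell library of irradiated epithelium as barcodes with at least 500 detected genes, at most 20% mitochondrial counts, at least 5 unique molecular identifiers (UMIs, one per captured RNA molecule) summed over Ascl3, Foxi1, Atp6v0d2 and Atp6v1b1, and under 3% of UMIs from the Klk1b genes and Egf, the secreted products of granular duct cells. This gate held 1154 irradiated barcodes, of 3319 barcodes in the irradiated library and 16640 in the series, and 966 of them carried the hashtag of a single mouse. The same gate held 827 of the 8277 untreated barcodes, 631 of them from a single mouse. The cells were thus chosen by their measured counts of the 4 gate genes and of the Klk1b genes and Egf, whose levels are given as a description and are not tested. Calcb and Sult1c1 had been picked for their difference in earlier work on these counts and are likewise described without a test.

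The irradiated group was 3 female C57BL/6J mice whose left gland had received 30 Gy, taken 90 days later, and the untreated group was 3 untreated females of that strain. In both, the whole Epcam-positive epithelium was sorted without dead cells and without cells carrying Cd3, Cd16/32, Cd31 or Cd45. Each group was 1 droplet library that pooled its 3 mice, which were told apart by 3 hashtag antibodies, so library and group cannot be told apart. The labels give all mice an age of 8-10 weeks, which cannot be the age of the irradiated mice at collection, so age and irradiation cannot be told apart either.

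Ionocytes are rare epithelial cells rich in mitochondria and in the vacuolar proton pump, a multi-subunit enzyme that moves protons across membranes. The transcription factor Foxi1 drives proton pump genes in ionocytes and in the intercalated cells of the kidney. Ascl3, another transcription factor, marks a set of duct cells of the mouse salivary gland.

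**Figure D1:**
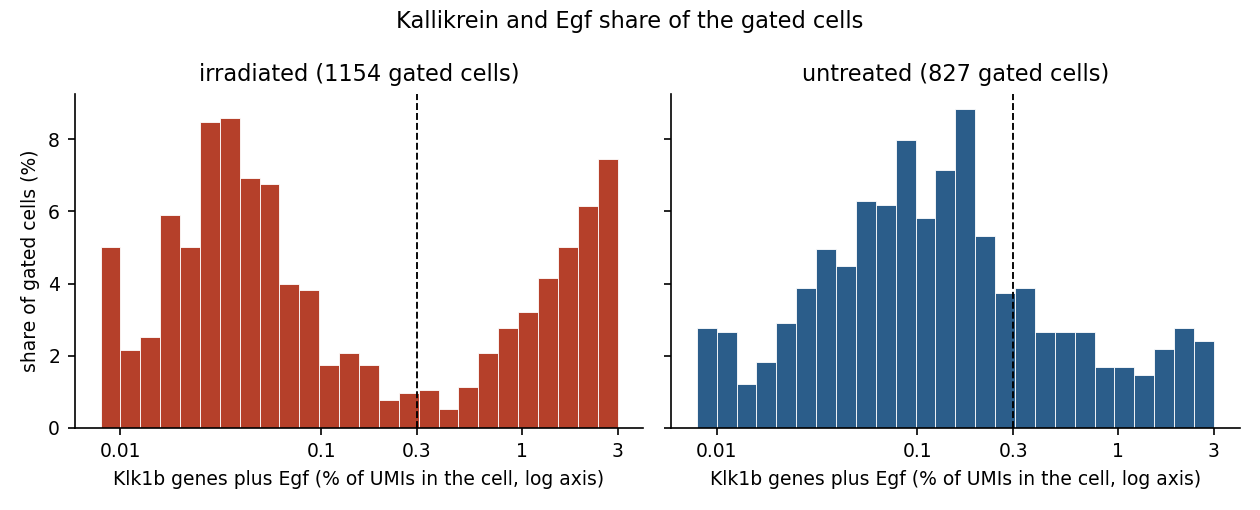
Histograms of the share of UMIs from the Klk1b genes plus Egf (%, log axis; the leftmost bar holds all cells under 0.01%) in the gated cells, as a share of gated cells (%), for the irradiated library on the left (1154 cells) and the untreated library on the right (827 cells). The dashed line marks 0.3%; in the irradiated library 387 cells lie above it in a separate hump that rises towards the 3% limit, and in the untreated library 201 cells do.

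The markers went with the label in 1 set of gated cells and against it in another. The kallikrein share of irradiated gated cells had 2 humps, so the gate was also split at 0.3%, a limit chosen after seeing this distribution. The cells under 0.3% and with at most 40000 UMIs, called kallikrein-low cells below, numbered 751 irradiated (628 from a single mouse) and 615 untreated (464). Of these, 91.3% and 94.2% had at least 2 UMIs of Ascl3 plus Foxi1. The other large set, at 0.3 to 3%, numbered 387 irradiated and 201 untreated cells, and only 11.9% of the irradiated ones had 2 such UMIs, against 74.6% of the untreated ones. Those 387 cells held Ascl3 at 14.3, Foxi1 at 21.9 and Atp6v0d2 at 333 counts per 1000000 UMIs (CPM), and Klk1, a kallikrein of granular ducts outside the Klk1b genes, at 164600 CPM. Klk1 stood at 1703 CPM in irradiated kallikrein-low cells and at 232500 CPM in irradiated granular duct cells. By these markers the 387 cells are not called ionocyte-like. They made up 51.8%, 33.4% and 22.3% of the gated cells of irradiated mice 1, 2 and 3, and 24.6%, 30.2% and 19.3% of those of untreated mice 1, 2 and 3. Counts over all genes and over gene lists are therefore given below for the gate and for its kallikrein-low cells, and beside a gene's gate change its kallikrein-low change is given where the call differed or the fold differed by over 1.5 times.

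Cells lay close to both limits. With exactly 5 gate-gene UMIs there were 96 irradiated and 46 untreated cells just inside, and with 4 there were 100 and 63 just outside. Between 2.5 and 3% kallikrein there were 67 irradiated and 18 untreated cells inside, and between 3 and 3.5% there were 57 and 15 outside.

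The libraries differed in depth and RNA quality. Gated cells of irradiated mice 1, 2 and 3 numbered 139, 634 and 193 with 3064423, 13210332 and 3862554 UMIs in all. Gated cells of untreated mice 1, 2 and 3 numbered 228, 232 and 171 with 3746369, 3598080 and 2873036 UMIs. The median cell held 18742.5 to 19288 UMIs in irradiated and 11735 to 12695 UMIs in untreated mice, with a mitochondrial share of 4.52 to 5.76% in irradiated and 12 to 12.2% in untreated mice. The libraries shared 8 barcodes, none of them gated in both. RNA of acinar cells, the secretory cells of the gland, moved with the group: 34 acinar markers summed to 844.5 to 1047 CPM in irradiated and 83340 to 186500 CPM in untreated gated cells (17 of 20 tested were lower and 1 higher), and in kallikrein-low cells to 590.1 to 816.2 CPM in irradiated and 20620 to 31450 CPM in untreated mice. Markers of intercalated duct summed to 814.5 to 1223 CPM in irradiated and 2853 to 8679 CPM in untreated gated cells (6 of 10 lower, 3 higher). The largest fall in this list (log2 change -11.54) was also the largest among the acinar markers, so these sums probably share a gene. Smgc, an acinar marker, stood at 1.58 CPM over all irradiated and 4930 CPM over all untreated gated cells. Markers of granular duct outside the rule summed to 63790 to 120300 CPM in irradiated and 46040 to 65280 CPM in untreated gated cells, but to 9338 to 12310 CPM in irradiated and 18120 to 25970 CPM in untreated kallikrein-low cells (6 of 10 lower, 1 higher). Klk1, one of them, was higher in the gate (0.86) and lower in kallikrein-low cells (-2.25). Markers of striated duct summed to 5423 to 7849 CPM in irradiated and 8924 to 10220 CPM in untreated gated cells. Among 19 immune markers Ptprc and Cd3e were at or near 0 in both groups, while the sum was 166 to 229 CPM in irradiated and 45.9 to 60.0 CPM in untreated gated cells, most of it Cd14 (144, 160 and 190 CPM in irradiated, 53.7, 57.3 and 42.5 CPM in untreated mice). The other immune marker tested, the lysozyme gene Lyz2, stood at 17.9, 3.56 and 36.8 CPM in irradiated and 0.267, 0.278 and 0.348 CPM in untreated gated cells (log2 change 5.68, adjusted p = 0.0112; kallikrein-low 7.15, adjusted p = 0.00301). Of 9 fibroblast markers Dcn carried the sum (84.2, 221 and 365 CPM in irradiated mice, 62.7, 35.0 and 28.5 CPM in untreated mice), and Col1a1 was at 0 in all 6. The part of depth, mitochondrial share and RNA of these other cell types in the results below was not tested beyond the alternative settings given.

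Gated cells made up 38.4%, 48.3% and 40.5% of the hashtagged cells of irradiated mice 1, 2 and 3, against 31.8%, 30.1% and 25.3% of those of untreated mice. The difference of 13.3 percentage points (42.4% ± 5.20 against 29.1% ± 3.39, SD, n = 3 each) had a two-sided exact permutation p of 0.1, the smallest that 3 against 3 allow. With every cell thinned to 4000 UMIs before gating, the direction turned: 7.39%, 10.6% and 15.6% of cells in irradiated mice and 20.8%, 16.9% and 14.2% in untreated mice (exact permutation p = 0.2). A larger share of gated cells after irradiation was thus not seen at equal depth. Asking for 5 UMIs out of 4000 is a stricter gate, and Ascl3, a gate gene, was lower in irradiated cells, as given below. The thinned gate therefore cannot tell whether the share of ionocyte-like cells rose. Kallikrein-low cells made up 26.9% ± 7.50 of irradiated and 21.4% ± 1.90 of untreated hashtagged cells (SD, n = 3 each, exact permutation p = 0.4). All these shares leave out barcodes without a hashtag call. These were 295 in the irradiated library, 89 of them gated, and 1778 in the untreated library, 153 of them gated. The part of these missing calls in the shares was not tested.

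Calcb, which encodes the neuropeptide beta-CGRP (chromosome 7, 114716555 to 114723368, GRCm38.p6), was counted in irradiated and not in untreated ionocyte-like cells. It stood at 217, 109 and 114 CPM in irradiated mice 1, 2 and 3 and at 0 in all 3 untreated mice. Against a floor of 3 counts over the untreated group, the pooled irradiated level of 126 CPM was at least 429-fold higher. In kallikrein-low cells the levels were 585, 175 and 152 CPM in irradiated mice and again 0 in untreated mice, at least 408-fold higher. In a sum over cells, fewer expressing cells and less RNA per cell cannot be told apart, so shares of cells with a UMI are given too, after thinning each cell to 4000 UMIs. Calcb was then found in 24.2%, 9.90% and 9.86% of irradiated kallikrein-low cells, in 0 of 462 untreated ones and in 0 of 216 irradiated granular duct cells. At this depth these counts of 0 allow shares of cells with a Calcb UMI of up to 0.649% and 1.39%, by counting error alone over cells pooled from 3 mice; they set no limit on cells that express the gene. Before thinning, Calcb was found in 0%, 3.51% and 4.62% of the same granular duct cells of irradiated mice 1, 2 and 3. Nor was it confined to gated cells. The 771 irradiated cells with under 5 gate-gene UMIs and under 3% kallikrein held Calcb at 22.8 CPM and Sult1c1 at 29.4 CPM. The 100 of them with 4 gate-gene UMIs held Calcb at 81.5 CPM and Sult1c1 at 112 CPM. The 1 untreated gated barcode with Calcb UMIs, 13 of them, carried the hashtags of more than 1 mouse and was left out. Calca, the neighbouring gene of alpha-CGRP, was near 0 throughout.

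Sult1c1, a cytosolic sulfotransferase, and Atp6v1g3, a G subunit of the proton pump's catalytic V1 part (chromosome 17, 53961615 to 53990631, and chromosome 1, 138273738 to 138289462), were also higher in irradiated ionocyte-like cells. Sult1c1 stood at 268, 382 and 684 CPM in irradiated mice and at 8.01, 4.17 and 8.35 CPM in untreated mice, and in kallikrein-low cells at 715, 638 and 942 CPM in irradiated and 12.5, 5.94 and 4.53 CPM in untreated mice. Every irradiated mouse was far above every untreated one. After thinning, Sult1c1 was found in 61.3%, 50.7% and 66.2% of irradiated and in 3.55%, 2.52% and 2.24% of untreated kallikrein-low cells, and in 0%, 1.75% and 0% of irradiated granular duct cells, whose median depth was 22398 to 25401 UMIs. Atp6v1g3 stood at 374, 698 and 1137 CPM in irradiated mice and at 110, 93.1 and 79.4 CPM in untreated mice, without overlap (log2 change 2.85 ± 0.32 SE, adjusted p = 0.000232). In kallikrein-low cells its change was 3.32 ± 0.19 (adjusted p = 5.29e-08), and after thinning it was found in 67.7%, 72.7% and 82.4% of irradiated and 29.0%, 23.3% and 23.1% of untreated ones. Within irradiated mice 1, 2 and 3, 78.9%, 79.5% and 86.2% of Sult1c1-carrying cells also held an Atp6v1g3 UMI, against 50%, 65.7% and 75% of the cells without Sult1c1.

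The windows around the annotated starts of both genes, 250 bases before to 50 bases after, are shown because these genes were high in the same cells (RefSeq, GRCm38.p6, each written 5′ to 3′ on the gene's strand). The Sult1c1 window is chr17:53990582-53990881 on the minus strand, and the Atp6v1g3 window is chr1:138273488-138273787 on the plus strand; capitals mark a match to a searched motif.
Sult1c1: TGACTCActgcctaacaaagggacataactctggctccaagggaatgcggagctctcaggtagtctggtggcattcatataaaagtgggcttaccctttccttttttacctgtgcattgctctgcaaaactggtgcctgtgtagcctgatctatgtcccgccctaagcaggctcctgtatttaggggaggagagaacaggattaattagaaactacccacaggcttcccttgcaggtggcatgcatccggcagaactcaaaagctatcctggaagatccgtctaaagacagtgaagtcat
Atp6v1g3: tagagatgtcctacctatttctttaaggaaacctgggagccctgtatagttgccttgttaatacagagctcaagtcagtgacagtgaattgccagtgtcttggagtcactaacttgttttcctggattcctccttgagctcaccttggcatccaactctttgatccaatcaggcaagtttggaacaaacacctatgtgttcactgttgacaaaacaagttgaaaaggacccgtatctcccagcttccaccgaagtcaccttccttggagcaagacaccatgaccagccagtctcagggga
Both strands were searched for the forkhead motif GTAAACA, found in 3.65% of 32851 such windows of all genes, and for the AP-1 motif TGACTCA, found in 5.20%; their letters do not overlap. The Sult1c1 window holds the AP-1 letters at its first base, 250 bases before the start, and the Atp6v1g3 window holds neither.

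**Figure D2:**
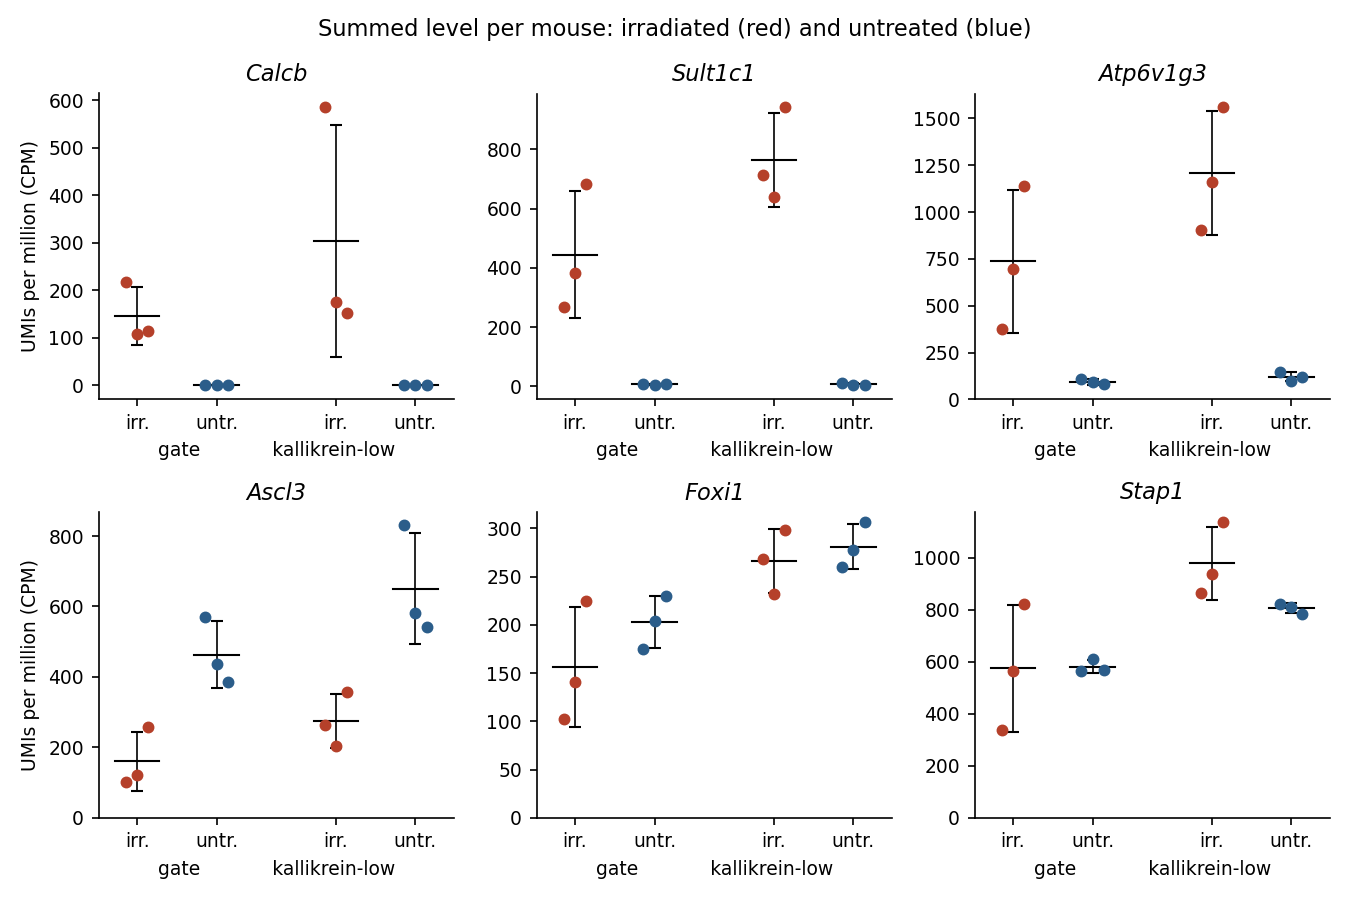
Summed level per mouse (CPM, linear axes) of Calcb, Sult1c1, Atp6v1g3, Ascl3, Foxi1 and Stap1 in gated cells (left pair of each panel) and kallikrein-low cells (right pair), irradiated mice in red and untreated mice in blue; lines are means and bars SD (n = 3). Calcb, Sult1c1 and Atp6v1g3 are higher in every irradiated mouse, Ascl3 lower, and Foxi1 and Stap1 overlap in gated cells.

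Of the genes that chose the cells, Ascl3 was lower in irradiated mice (103, 123 and 257 CPM) than in untreated mice (570, 436 and 385 CPM), also in kallikrein-low cells (263, 203 and 358 CPM in irradiated, 831, 582 and 541 CPM in untreated mice). After thinning it was found in 58.1%, 45.4% and 56.3% of irradiated and 84.6%, 76.1% and 76.1% of untreated kallikrein-low cells. Foxi1 overlapped in kallikrein-low cells (268, 232 and 298 CPM in irradiated, 260, 277 and 306 CPM in untreated mice), as did the pump subunit gene Atp6v0d2 in the gate (310, 351 and 366 CPM in irradiated, 329, 346 and 317 CPM in untreated mice). In thinned kallikrein-low cells Atp6v0d2 was found in 61.3%, 73.4% and 72.5% of irradiated and 87.6%, 80.5% and 81.3% of untreated cells, without overlap. The gate asks for a fixed number of UMIs and irradiated cells were deeper, so a lower CPM sufficed to enter it in the irradiated library. Stap1, an adaptor protein that the rule did not use and a marker of these cells, did not pass the test (336, 566 and 824 CPM in irradiated mice, 565, 612 and 568 CPM in untreated mice, adjusted p = 0.733; kallikrein-low log2 change 0.28, adjusted p = 0.0565).

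Calcb was held by a minority of the irradiated cells. At least 3 Calcb UMIs were found in 71 of 628 irradiated kallikrein-low cells (11.3%): 14 of 66 in mouse 1, 42 of 415 in mouse 2 and 15 of 147 in mouse 3. These cells held 98.0 to 99.8% of the Calcb UMIs of their mouse, with up to 140 in a single cell. They were set beside the cells of the same mouse with no Calcb UMI, a split made after seeing the counts and given without a test. Of all genes, 74 were at least 2-fold higher in the Calcb-carrying cells of every mouse and 20 at least 2-fold lower, on a scale with 5 CPM added. Calcb-carrying cells were deeper (medians 19667, 19310 and 19994 against 15453, 17056 and 17309 UMIs in mice 1, 2 and 3) and had less mitochondrial RNA (3.31%, 4.17% and 4.42% against 5.84%, 6.45% and 6.03%).

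The 12 genes with the highest of these ratios, by the lowest of the 3 mice, were Mmp7, Il4i1, Il1rn, Pdgfb, Plb1, Msln, Tnip3, Rnase1, Cyba, Il18r1, Traf1 and Tm4sf1, beside Calcb itself. Mmp7, a matrix metalloproteinase, stood at 97.3, 61.0 and 37.6 CPM in Calcb-carrying cells of mice 1, 2 and 3 and at 0, 0.926 and 0.464 CPM in cells without Calcb. Il1rn, the interleukin 1 receptor antagonist, stood at 73.0, 43.4 and 56.4 CPM in cells with and 6.55, 1.54 and 0.464 CPM in cells without Calcb. Pdgfb, a platelet-derived growth factor chain, stood at 79.96, 73.9 and 62.7 CPM with and 7.86, 2.01 and 4.64 CPM without. All 3 were thus near 0 in the larger set of irradiated ionocyte-like cells and in untreated ones, where Mmp7 and Pdgfb had no count in kallikrein-low cells. Il4i1, an amino acid oxidase, stood at 38.2, 50.5 and 72.1 CPM with and 0, 2.62 and 1.39 CPM without Calcb. Plb1, a phospholipase, stood at 278, 129 and 100.2 CPM with and 13.1, 14.7 and 11.1 CPM without. Msln, the surface protein mesothelin, varied most between mice, with 355, 75.1 and 62.7 CPM in cells with and 0, 7.72 and 0.464 CPM in cells without Calcb. Ramp1, a subunit of the CGRP receptor, stood at 45.2, 73.9 and 94.0 CPM in Calcb-carrying cells and at 9.18, 10.2 and 7.89 CPM in cells without, while Calcrl, the other receptor subunit, had no count in either set. Tm4sf1, a tetraspan membrane protein, and Plac8 were also higher in cells with Calcb (Tm4sf1 at 1304, 877 and 680 against 309, 236 and 177 CPM). Fos, an immediate-early gene, was lower, at 170, 344 and 279 CPM with and 1091, 877 and 704 CPM without Calcb. Sult1c1 did not separate the sets (734, 739 and 1065 CPM with and 720, 615 and 922 CPM without), nor did Stap1, whereas Ascl3 was lower in Calcb-carrying cells (111, 85.7 and 219 against 319, 220 and 381 CPM).

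**Figure D3:**
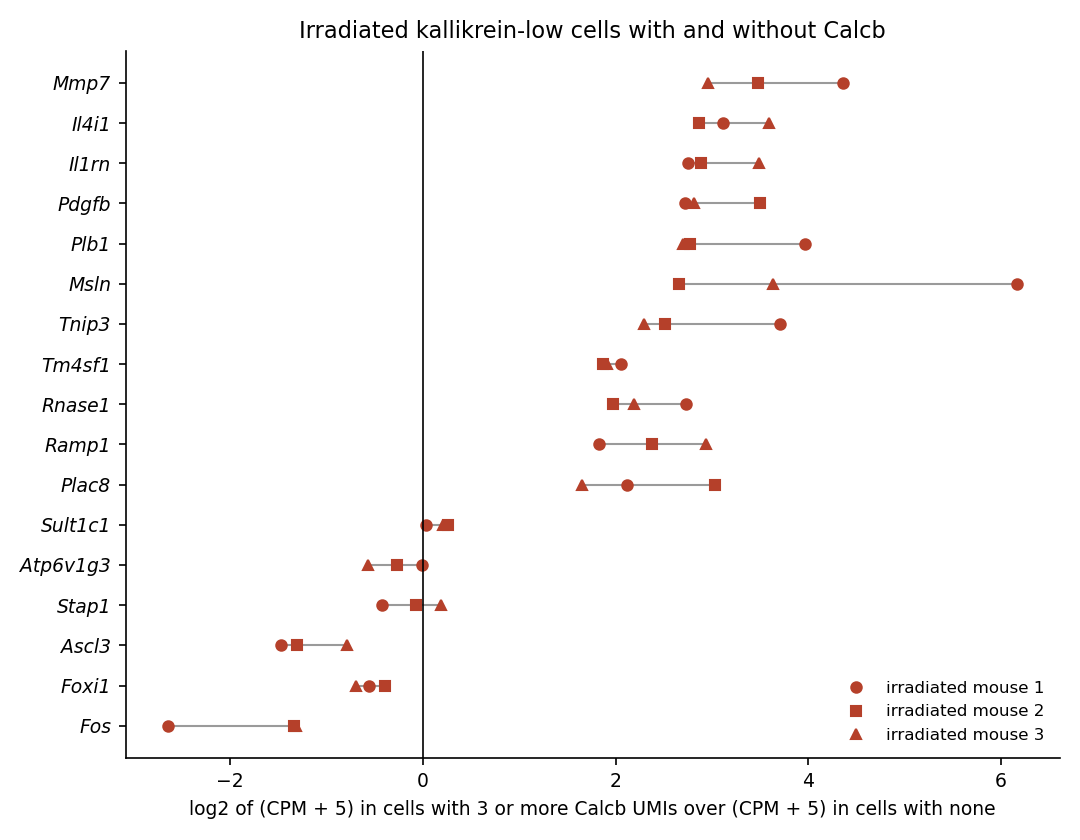
Log2 ratio of CPM plus 5 in irradiated kallikrein-low cells with 3 or more Calcb UMIs over CPM plus 5 in those with none, for 17 genes, 1 symbol per irradiated mouse joined by a line. The 11 genes from Mmp7 to Plac8 lie above 1 in all 3 mice, Sult1c1 and Stap1 lie near 0, and Ascl3, Foxi1 and Fos lie below 0.

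The proton pump showed no shared shift. Of 19 pump subunit genes tested in the gate apart from those of the rule, 2 were higher and 3 lower in irradiated mice, where 14.7% of all 9948 genes tested were higher and 9.68% lower. In kallikrein-low cells 2 of 18 were higher and 2 lower, where 14.5% of 8882 genes were higher and 10.1% lower. Apart from Atp6v1g3 the changes were small: Atp6v1h, a regulatory V1 subunit, rose by 0.63 on the log2 scale in the gate (137, 108 and 113 CPM in irradiated, 72.6, 73.4 and 69.6 CPM in untreated mice) but not in kallikrein-low cells (0.27, adjusted p = 0.0923). Atp6ap1, an accessory protein of the pump, fell by 0.42 in the gate and by 0.37 in kallikrein-low cells. The median log2 change of the 19 genes was 0.050, against -0.015 over all genes tested.

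More ion transport genes fell than rose. Of 29 tested, 8 fell and 1 rose in the gate, and of 26 tested in kallikrein-low cells 11 fell and 3 rose. Bsnd, an accessory subunit of chloride channels, stood at 11.4, 18.9 and 35.2 CPM in irradiated mice and at 52.9, 50 and 66.5 CPM in untreated mice (log2 change -1.47 ± 0.28 SE, adjusted p = 0.00452). Scnn1b, a subunit of the epithelial sodium channel, fell by 0.79 (adjusted p = 0.00101), with the Scnn1g subunit at -1.11 (adjusted p = 0.0043). Fxyd2, a regulator of the sodium pump, fell by 0.69, and Slc12a2, the sodium-potassium-chloride cotransporter, fell by 0.74 in the gate and by 0.31 in kallikrein-low cells. The 1 gene that rose was the scaffold gene Slc9a3r1 (124, 128 and 139 CPM in irradiated, 62.7, 70.3 and 72.8 CPM in untreated mice). With cells of at most 10% mitochondrial UMIs, which left 47 to 54 untreated cells a mouse and with which 10.0% of 8728 genes rose and 6.21% fell, 1 gene of the list rose and 4 fell, and Bsnd, Scnn1b and Fxyd2 no longer passed. Slc12a2 did not pass without irradiated mouse 2 or without any 1 of the untreated mice.

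Of 16 tested genes of a list tied to ionocytes, 6 fell in the gate and 1 rose, the pump gene Atp6v1g3 already described. In kallikrein-low cells 6 fell and 3 rose, Atp6v1g3 among them. The transcription factor Tfcp2l1, which acts with Foxi1 targets in kidney intercalated cells of mice, stood at 253, 312 and 347 CPM in irradiated and 555, 590 and 584 CPM in untreated mice (log2 change -1.02 ± 0.10, adjusted p = 0.000101; kallikrein-low -0.81). Fgf10, a growth factor, stood at 17.9, 21.7 and 40.6 CPM in irradiated and 59.3, 63.1 and 52.2 CPM in untreated mice (-1.24 ± 0.23, adjusted p = 0.00362). Foxi2, a relative of Foxi1, fell by 1.02, a call lost without irradiated mouse 2 or any untreated mouse. Cftr, the chloride channel of airway ionocytes, did not pass in the gate (-0.40, adjusted p = 0.0602) and was -0.35 in kallikrein-low cells (adjusted p = 0.041).

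Across all genes, 1462 of 9948 were higher and 963 lower in irradiated gated cells (edgeR quasi-likelihood test, adjusted p under 0.05), and 1285 of 8882 were higher and 897 lower in irradiated kallikrein-low cells. These are 14.7% and 9.68% of the genes tested in the gate, and 14.5% and 10.1% of those tested in kallikrein-low cells. The counts of list members above and below are to be read beside these shares. Of 8878 genes tested in both, 983 were higher in both, 569 lower in both, and 11 were higher in the gate and lower in kallikrein-low cells. Irradiated mouse 2 gave most of the irradiated cells under the hashtag calls used. Without it 1473 genes passed in the gate, and without untreated mouse 2, 1603 did.

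Genes past the threshold, of at least 20 CPM, outside the marker lists of other cell classes and without overlap of mice, were ranked by change. The 14 largest increases in the gate held Lcn2, Tnip3, Areg, Ifit3, Tnfrsf11b, Ifit3b, Casp4, Plaur, Cdkn1a, Lgals3, Fhl2 and H2-Q7. They also held Calcb and Sult1c1, which had been picked beforehand for their difference, so their place there is no test result. Casp4, an inflammatory caspase that senses bacterial lipopolysaccharide, stood at 66.2, 53.1 and 47.1 CPM in irradiated mice and 3.47, 1.67 and 2.09 CPM in untreated mice (log2 change 4.39 ± 0.27 SE, adjusted p = 8.77e-06; kallikrein-low 3.70). Tnfrsf11b, the decoy receptor osteoprotegerin, stood at 99.5, 48.1 and 41.4 CPM in irradiated and 3.47, 1.67 and 1.74 CPM in untreated mice (4.62 ± 0.49), and in irradiated kallikrein-low cells at 75.2, 8.57 and 11.1 CPM (5.28, adjusted p = 0.00866). Plaur, the urokinase receptor, changed by 3.998 ± 0.39 and Fhl2, a LIM-domain cofactor, by 3.75 ± 0.32 (kallikrein-low 3.11 and 3.61). In the gate irradiated mouse 1 was the highest for all of these. In kallikrein-low cells mouse 3 was the highest for Plaur (16.9, 15.5 and 26.4 CPM in irradiated mice 1, 2 and 3). Other increases were larger in the gate than in kallikrein-low cells. Lgals3, the lectin galectin 3, stood at 4084, 2251 and 1422 CPM in irradiated and 153, 214 and 116 CPM in untreated gated cells, but at 451, 229 and 120 CPM in irradiated and 92.4, 109.9 and 45.3 CPM in untreated kallikrein-low cells (log2 change 3.94 and 1.61). Lcn2, an iron-scavenging antimicrobial protein, Areg, an EGF receptor ligand, and the long noncoding RNA Morrbid passed in the gate (log2 changes 6.70, 6.15 and 4.99) but were too low to be tested in kallikrein-low cells, and Lcn2 stood at 88.1 CPM in the 387 cells with 0.3 to 3% kallikrein and at 13.8 CPM in kallikrein-low ones.

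By the same rule within kallikrein-low cells, Plac8, Plb1, Tm4sf1, Adgrf1, Cd74, Stx11 and Rhov were also among the largest increases. Plac8, a small cysteine-rich protein, stood at 86.5, 33.2 and 26.7 CPM in irradiated kallikrein-low cells and at 0 in untreated ones, at least 71.9-fold higher. Adgrf1, an adhesion G protein-coupled receptor, stood at 47.0, 39.8 and 42.8 CPM in irradiated and 4.33, 3.96 and 1.13 CPM in untreated kallikrein-low cells (3.70 ± 0.27). Rhov, a small GTPase, stood at 118, 85.2 and 89.0 CPM in irradiated and 3.85, 7.42 and 12.5 CPM in untreated ones (3.61 ± 0.24).

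The 14 largest decreases in the gate by the same rule held Klf2, Hspa1a, Fos, Hspa1b, Zfp36 and Fosb, described with their lists below, and 8 further genes. G0s2, an inhibitor of lipid breakdown, stood at 25.1, 14.3 and 12.4 CPM in irradiated mice and 100.1, 113 and 127 CPM in untreated mice (-2.86 ± 0.23, adjusted p = 3.26e-05; kallikrein-low -3.44). Kcnj8, a subunit of ATP-sensitive potassium channels, stood at 12.1, 26.7 and 35.7 CPM in irradiated and 101.2, 63.6 and 69.3 CPM in untreated mice (-1.73 ± 0.29; kallikrein-low -1.28). Ncald, a calcium sensor, changed by -1.77, and Gprc6a, a receptor for basic amino acids, by -1.53 (kallikrein-low -1.34 and -1.08). Rap1gap, which switches off the GTPase Rap1, changed by -1.80, and Tm6sf1, Smim5 and Gcc1 by -1.66, -1.59 and -1.68 (kallikrein-low -1.60, -1.10, -1.51 and -1.51). In kallikrein-low cells the haptoglobin gene Hp (-3.24), the carbonic anhydrase gene Car2 (-2.25) and the genes that follow were also among the 14 largest decreases, and 7 of these 9 genes did not pass in the gate. Arg1, the urea cycle enzyme arginase 1, stood at 13.2, 18.5 and 11.5 CPM in irradiated and 123, 98.5 and 91.7 CPM in untreated kallikrein-low cells (-2.72 ± 0.18, adjusted p = 1.81e-07), against a gate change of -0.40 (adjusted p = 0.166). Cyp2f2, a cytochrome P450, stood at 111, 62.4 and 44.3 CPM in irradiated and 240, 440 and 311 CPM in untreated kallikrein-low cells (-2.30; gate adjusted p = 0.445). Pcp4l1, Nudt4 and Fabp5, a fatty acid carrier, changed by -2.53, -1.77 and -1.69 in kallikrein-low cells and did not pass in the gate (adjusted p = 0.879, 0.819 and 0.446). Cdo1, which oxidises cysteine, and Cbr2, a carbonyl reductase, passed in both (gate -1.39 and -1.38, kallikrein-low -2.58 and -1.89). Arg1, Cyp2f2, Pcp4l1, Nudt4 and Fabp5 averaged 194, 645.5, 150, 239 and 147 CPM in irradiated and 223, 961, 173, 396 and 67.8 CPM in untreated granular duct cells, whose markers mostly fell in kallikrein-low cells too, and the part of granular duct RNA in these decreases was not tested.

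**Figure D4:**
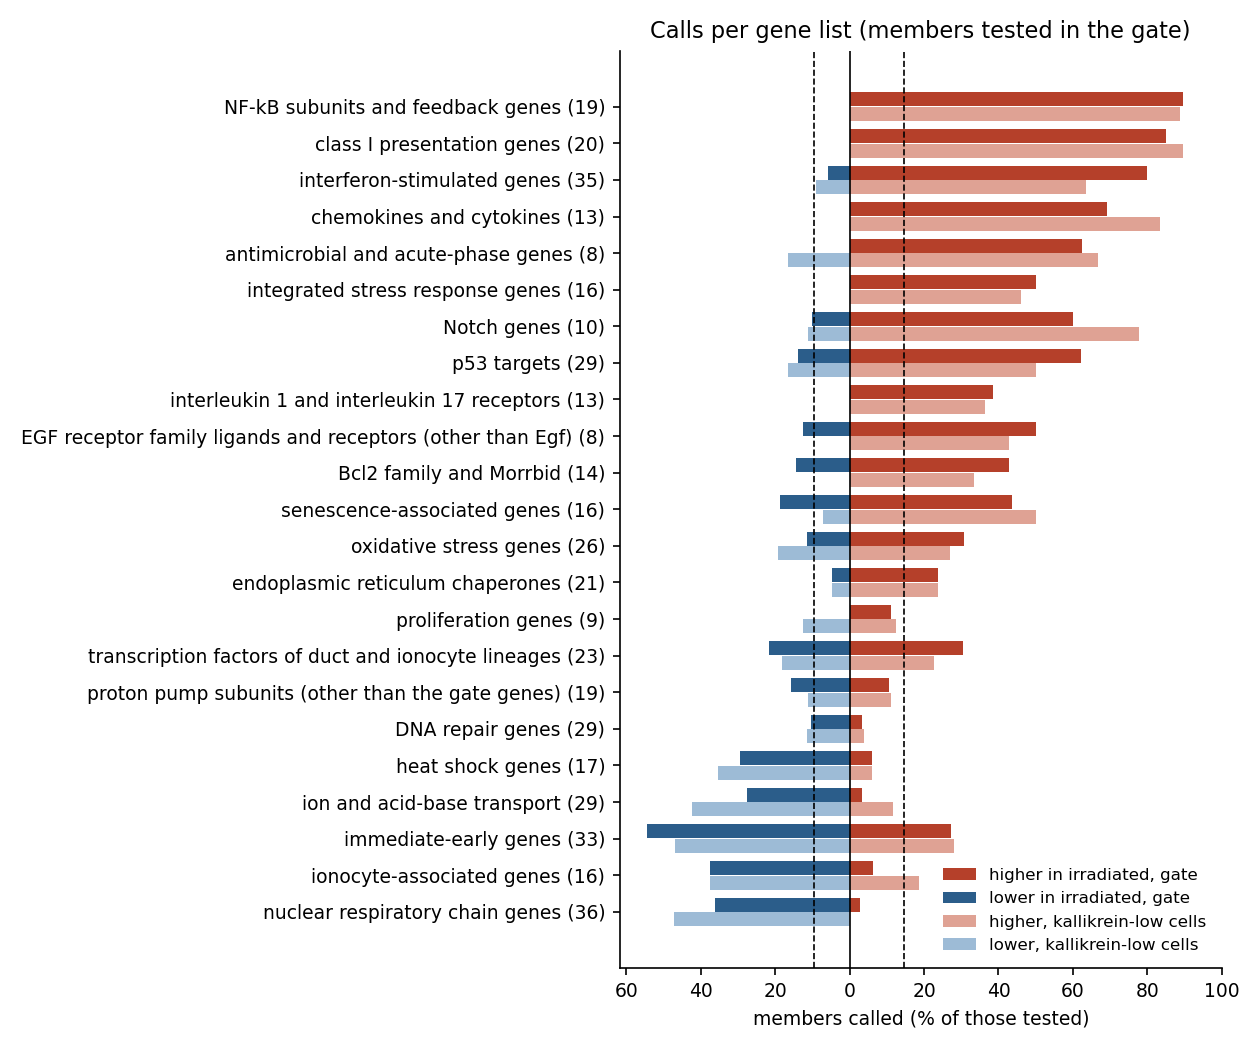
Share of tested members of each gene list (number tested in brackets) that passed an adjusted p of 0.05, as a percentage, drawn to the right where higher and to the left where lower in irradiated mice; dark bars are gated cells and pale bars kallikrein-low cells. Dashed lines mark 14.7% and 9.68%, the shares of all genes tested that were higher and lower in the gate.

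Of 29 tested genes known as p53 targets, which respond to DNA damage, 18 were higher and 4 lower in irradiated gated cells, and 12 of 24 were higher and 4 lower in kallikrein-low cells. Their median log2 change was 1.13 in the gate and 0.55 in kallikrein-low cells, against -0.015 and -0.014 over all genes. Cdkn1a, the cell-cycle inhibitor p21, stood at 668, 339 and 248 CPM in irradiated and 17.1, 41.4 and 19.1 CPM in untreated mice (3.94 ± 0.43, adjusted p = 0.000203), and in thinned kallikrein-low cells it was found in 51.6%, 40.1% and 40.1% of irradiated and 6.51%, 8.80% and 6.72% of untreated cells. Phlda3, an inhibitor of Akt signalling, stood at 128, 78.6 and 82.6 CPM in irradiated and 16.3, 21.1 and 11.1 CPM in untreated mice (2.46 ± 0.25; kallikrein-low 2.44). Mdm2, which degrades p53, changed by 2.18 ± 0.37 in the gate and by 1.04 ± 0.25 in kallikrein-low cells, and Ccng1 by 1.75 and 1.11. Irradiated mouse 1 stood above the other irradiated mice for both genes in the gate. Gdf15, a stress cytokine, passed in the gate (1.88) but not in kallikrein-low cells (0.32, adjusted p = 0.667) or without untreated mouse 1 or 3. Btg2, an antiproliferative gene that also responds as an immediate-early gene, fell by 1.04 (adjusted p = 0.00214). Of a list of the Bcl2 family and Morrbid, 6 of 14 tested genes were higher and 2 lower in the gate, Morrbid among the higher. In kallikrein-low cells 4 of 12 were higher and none lower. The death effector Bax stood at 229, 179 and 188 CPM in irradiated and 65.1, 69.5 and 63.7 CPM in untreated mice (1.49 ± 0.12), and the survival gene Mcl1 changed by 0.86 (kallikrein-low 1.17 and 0.45). Of 29 DNA repair genes tested in the gate 1 rose and 3 fell (1 and 3 of 26 in kallikrein-low cells). Since 9.68% of all genes tested in the gate fell, the 3 falls are near the share over all genes. Of 16 genes tied to senescence 7 rose and 3 fell (7 and 1 of 14 in kallikrein-low cells).

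Genes of NF-kB, the transcription factor of inflammatory signalling, rose as a list: 17 of 19 tested were higher and none lower in the gate, and 16 of 18 in kallikrein-low cells, with medians of 0.88 and 1.15. Tnip3, an inhibitor in this pathway, stood at 256, 122 and 67.6 CPM in irradiated and 1.60, 2.22 and 0.696 CPM in untreated gated cells (6.46 ± 0.68). In kallikrein-low cells Tnip3 stood at 32.9, 19.7 and 10.7 CPM in irradiated and 0.963, 0.495 and 0 CPM in untreated mice (5.12 ± 0.63), and it averaged 273 CPM in irradiated and 17.1 CPM in untreated granular duct cells. Nfkbie, an inhibitory subunit, stood at 20.9, 29.7 and 39.9 CPM in irradiated and 6.14, 4.45 and 3.83 CPM in untreated mice (2.53 ± 0.26, adjusted p = 0.000158; kallikrein-low 3.19). Icam1, an adhesion molecule for leukocytes, changed by 1.94 ± 0.15, and Relb, a subunit, by 1.60 ± 0.21. Tnip1 and Nfkbia, further inhibitors, changed by 2.11 and 1.45. With cells of at most 10% mitochondrial UMIs 12 genes of this list were higher and none lower.

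Of 13 tested chemokine and cytokine genes 9 were higher in the gate, and 10 of 12 in kallikrein-low cells, with none lower. Csf1, a growth factor for macrophages, stood at 70.2, 104 and 110 CPM in irradiated and 33.9, 26.7 and 31.3 CPM in untreated mice (1.54 ± 0.17). Cxcl17, a mucosal chemokine, stood at 1105, 998 and 1018 CPM in irradiated and 520, 497 and 501 CPM in untreated mice (0.95 ± 0.09). Il34, which shares the receptor of Csf1, changed by 1.66, and Cxcl10 by 1.68 (370, 376 and 379 CPM in irradiated, 152, 106 and 66.8 CPM in untreated mice), a call lost at equal depth. Il1rn stood at 23.8, 11.0 and 15.0 CPM in irradiated mice and at 0.267, 0 and 0 CPM in untreated mice (6.92; kallikrein-low 5.51). Cxcl2, a neutrophil chemokine, varied among untreated mice (17.6, 69.3 and 55.7 CPM in irradiated, 1.07, 0.834 and 17.4 CPM in untreated mice) and did not pass without irradiated mouse 2, untreated mouse 1 or untreated mouse 2. Of 13 receptor genes of the tumour necrosis factor, interleukin 1, interleukin 17 and related families, 5 were higher and none lower in the gate (4 of 11 and none in kallikrein-low cells). The largest change among them was in Tnfrsf1b, a receptor of tumour necrosis factor, at 28.7, 24.7 and 24.3 CPM in irradiated and 0.534, 1.39 and 1.04 CPM in untreated mice (4.59 ± 0.28; kallikrein-low 4.25). Of 8 antimicrobial and acute-phase genes tested 5 were higher and none lower in the gate, Lcn2 among them, and 4 of 6 were higher and 1 lower in kallikrein-low cells.

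Interferon-stimulated genes, which cells switch on in response to interferons, were higher in 28 of 35 and lower in 2 of 35 in the gate, and 21 of 33 and 3 of 33 in kallikrein-low cells. Their median log2 changes were 1.53 and 1.00. Irf7, a transcription factor of this response, stood at 348, 401 and 643 CPM in irradiated and 60.3, 91.2 and 102 CPM in untreated mice (2.37 ± 0.22, adjusted p = 8.87e-05). Ifit3, an antiviral protein, stood at 89.4, 73.2 and 193 CPM in irradiated and 0.801, 3.33 and 4.18 CPM in untreated mice (5.34 ± 0.49; kallikrein-low 4.18), and the related Ifit3b changed by 4.59 (kallikrein-low 3.85). Oas1a changed by 3.65 and Bst2, which tethers budding viruses, by 1.73. The 2 that fell were Irf1 and Ifi27, both by 0.61, and neither passed without irradiated mouse 2. With at most 10% mitochondrial UMIs 26 were higher and 2 lower.

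Genes of class I antigen presentation were higher in 17 of 20 in the gate and 17 of 19 in kallikrein-low cells, with none lower and medians of 1.25 and 1.19. H2-K1, a classical class I heavy chain, stood at 3470, 3700 and 4225 CPM in irradiated and 988, 1238 and 1029 CPM in untreated mice (1.72 ± 0.09, adjusted p = 3.1e-06). B2m, its light chain, stood at 1921, 1776 and 1884 CPM in irradiated and 328, 440 and 418 CPM in untreated mice (2.15 ± 0.10). H2-Q7, a nonclassical heavy chain, changed by 3.73, Tap1, the peptide transporter, by 1.59, and Psmb8, an immunoproteasome subunit, by 1.54. The H2-Q genes are near-identical copies, so reads may be split among them. Cd74, the invariant chain of class II, stood at 75.4, 76.0 and 81.6 CPM in irradiated and 14.1, 4.72 and 6.27 CPM in untreated mice (3.08 ± 0.29; kallikrein-low 3.68).

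Immediate-early genes, which cells induce within minutes of a stimulus or of dissociation, moved both ways: of 33 tested, 18 were lower and 9 higher in the gate, and of 32 in kallikrein-low cells 15 were lower and 9 higher. Fos stood at 595, 674 and 570 CPM in irradiated and 1479, 1982 and 3142 CPM in untreated mice (-1.93 ± 0.23, adjusted p = 0.000306). Klf2 stood at 6.85, 4.39 and 5.70 CPM in irradiated and 23.2, 36.1 and 57.1 CPM in untreated mice (-2.95 ± 0.33). Zfp36, which destabilises cytokine mRNAs, changed by -1.67, Fosb by -1.61, Egr1 by -1.47, Atf3 by -1.19 and Jun by -0.96. In the other direction, Fosl1, another partner of Jun in AP-1, stood at 122, 116 and 99.9 CPM in irradiated and 15.8, 17.8 and 10.8 CPM in untreated mice (2.83 ± 0.17, adjusted p = 7.45e-06), and Myc changed by 2.13 (kallikrein-low 3.26 and 0.83). Of 17 heat shock genes tested 5 fell and 1 rose in the gate, and 6 fell and 1 rose in kallikrein-low cells. Hspa1a, an inducible chaperone, stood at 67.2, 116 and 88.5 CPM in irradiated and 222, 530 and 969 CPM in untreated mice (-2.72 ± 0.43). Irradiated mice were alike and untreated mice spread widely, with mouse 3 the highest, for Fos, Klf2 and Hspa1a. With cells of at most 10% mitochondrial UMIs 16 immediate-early genes were lower and 7 higher, and 5 heat shock genes were lower and none higher.

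Genes of other stress responses rose in part. Of 16 genes of the integrated stress response tested 8 were higher and none lower in the gate (6 of 13 in kallikrein-low cells), among them Chac1, which degrades glutathione (36.9, 23.9 and 15.3 CPM in irradiated, 1.60, 1.67 and 1.74 CPM in untreated mice, 3.80 ± 0.44; kallikrein-low 2.85), and Ddit4, an inhibitor of mTOR (1.98). Of 26 oxidative stress genes 8 were higher and 3 lower in the gate, and 7 were higher and 5 lower in kallikrein-low cells. Srxn1, a sulfiredoxin, stood at 267, 189 and 187 CPM in irradiated and 35.0, 44.8 and 26.1 CPM in untreated mice (2.505 ± 0.21), Hmox1, heme oxygenase 1, changed by 1.41, and Gstm1, a glutathione transferase, by -1.20. Mgst1, a microsomal glutathione transferase, was higher in the gate (1.63, adjusted p = 0.00748) and lower in kallikrein-low cells (-1.56, adjusted p = 0.00373). Of 36 nuclear genes of the respiratory chain 13 were lower and 1 higher in the gate, and 17 lower and none higher in kallikrein-low cells, all by less than 1 on the log2 scale. Atp5b, a subunit of ATP synthase, stood at 1195, 1331 and 1323 CPM in irradiated and 1724, 1815 and 1651 CPM in untreated mice (-0.52 ± 0.08, adjusted p = 0.000982), and Ndufs6, of complex I, changed by -0.55. The mitochondrial share of these cells was also lower in irradiated mice, as given above, and with at most 10% mitochondrial UMIs 7 of these genes were lower and 1 higher.

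Genes of Notch signalling, which sets cell fates between neighbouring cells, and genes of other duct programmes changed as well. Of 10 Notch genes tested 6 rose and 1 fell in the gate, and 7 of 9 rose and 1 fell in kallikrein-low cells. Hes1, a target gene of Notch, stood at 373, 397 and 328 CPM in irradiated and 159, 156 and 192 CPM in untreated mice (1.03 ± 0.13, adjusted p = 0.000384), and the receptor gene Notch3 changed by 1.501 ± 0.27. Egfr, the EGF receptor, stood at 20.6, 22.5 and 26.7 CPM in irradiated and 6.14, 9.45 and 7.66 CPM in untreated mice (1.49 ± 0.17), and its ligand gene Hbegf changed by 0.93. Of 8 genes of that family tested 4 rose and 1 fell in the gate, and of 7 in kallikrein-low cells 3 rose and none fell. Of 23 transcription factor genes of duct and ionocyte lineages 7 rose and 5 fell in the gate, and of 22 in kallikrein-low cells 5 rose and 4 fell. Id1 and Id3, inhibitors of helix-loop-helix factors, changed by 1.88 and 1.23 in the gate and by 2.16 and 1.55 in kallikrein-low cells, with irradiated mouse 1 the lowest of the irradiated mice. Foxq1 passed in the gate (2.15 ± 0.36) and not in kallikrein-low cells (0.45, adjusted p = 0.614), where the mice overlapped. Luminal duct markers rose in 7 of 10 in the gate (7 of 8 with 1 lower in kallikrein-low cells), among them the keratin gene Krt8 at 4428, 4593 and 4265 CPM in irradiated and 1522, 1746 and 1547 CPM in untreated mice (1.38 ± 0.08; kallikrein-low 1.503). Of 9 proliferation genes tested 1 rose and none fell in the gate (1 and 1 of 8 in kallikrein-low cells), and of 21 endoplasmic reticulum chaperone genes 5 rose and 1 fell in each.

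The irradiation effect was set against that in granular duct cells of the same mice, the cells with at least 3% Klk1b genes and Egf and under 5 gate-gene UMIs (259 irradiated and 363 untreated barcodes). Several lists rose there too, where 1122 of 7371 genes tested were higher and 904 lower. Higher were 13 of 14 NF-kB, 24 of 28 interferon-stimulated and 15 of 18 class I genes, with none lower. Of 21 p53 targets 14 were higher and 2 lower. These rises were thus not particular to ionocyte-gated cells. In a fit with a block per mouse, the change differed for 278 of 9902 genes, being more positive in ionocyte-gated cells for 141 (1.42%) and more negative for 137 (1.38%). In kallikrein-low cells it was more positive for 283 (3.07% of 9231) and more negative for 410 (4.44%). Without irradiated mouse 2 the gate's count was 86, and without untreated mice 1, 2 and 3 it was 120, 150 and 90. Ccn2, a matrix-associated growth factor, stood at 94.3, 145 and 171 CPM in irradiated and 33.1, 23.9 and 35.2 CPM in untreated ionocyte-gated cells, but at a mean of 5.72 CPM in irradiated and 14 CPM in untreated granular duct cells (difference of log2 changes 3.47 ± 0.76 SE, adjusted p = 0.027). Ifi27l2a, an interferon-stimulated gene, was higher in both classes, with means of 2696 CPM in irradiated and 201 CPM in untreated granular duct cells and a smaller change in ionocyte-gated cells (difference -2.33 ± 0.17, adjusted p = 2.4e-06). Gsn, the actin-severing protein gelsolin, stood at 211, 242 and 259 CPM in irradiated and 147, 142 and 140 CPM in untreated ionocyte-gated cells, and at means of 66.7 CPM in irradiated and 7.11 CPM in untreated granular duct cells (difference -2.43 ± 0.30).

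**Figure D5:**
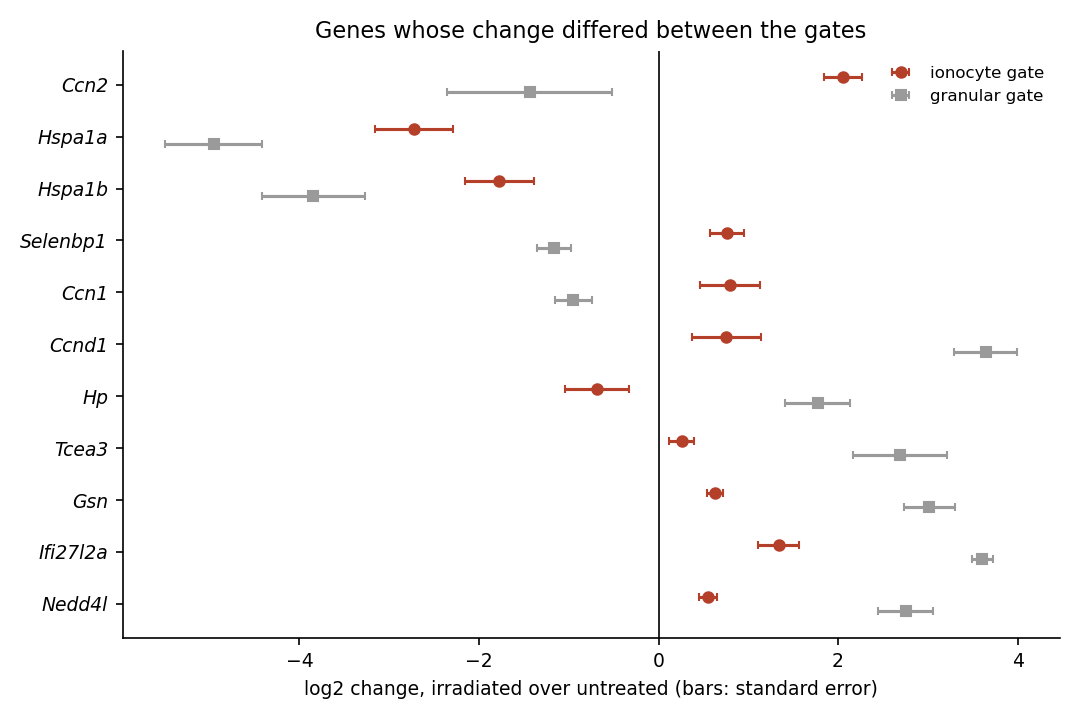
Log2 change, irradiated over untreated (bars: SE, n = 3 mice each), in ionocyte-gated cells (red circles) and granular duct cells (grey squares) for 11 named genes whose change differed between them. The upper 5 genes, Ccn2 to Ccn1, lie further right in ionocyte-gated cells, and the lower 6, Ccnd1 to Nedd4l, further right in granular duct cells.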

How the data were processed

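Single-cell RNA of the sorted epithelium was measured with 10x 3′ libraries. The authors deposited unnormalized UMI counts for 32285 genes and 3 hashtags in each barcode, made with Cell Ranger 6.1.2 on mm10 per the submitters' processing notes. Mice were called with HTODemux (Seurat 5.3.0, positive quantile 0.99, 5 starting clusters, a number chosen after seeing the hashtag counts). The cells given to a mouse depended on this choice. With 4 starting clusters irradiated mouse 2 held 184 gated cells instead of 634, and 2366 genes passed in the gate. By hashtag share (at least 70% of a cell's hashtag UMIs and at least 10), untreated mice 1 and 3 held 18 and 15 gated cells instead of 228 and 171. Over all cells 11.2% of irradiated and 43.4% of untreated barcodes had no call. Gated hashtag doublets (99 irradiated, 43 untreated) and gated barcodes without a call (89 and 153) were left out. Doublets within a mouse stay in: scores of Scrublet (scanpy 1.11.5) separated known hashtag doublets only weakly (area under the curve 0.580 irradiated, 0.600 untreated).

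UMIs were summed per mouse, the replicate (n = 3 per group). CPM is a sum per 1000000 gated UMIs of that mouse. Sums were tested with edgeR 4.0.16 (R 4.3.3; genes kept by filterByExpr, TMM scaling, quasi-likelihood test), with p adjusted by Benjamini-Hochberg across every gene kept and a threshold of 0.05; the script was tested on simulated data. Because each group is 1 preparation, p-values measure only the spread among its 3 mice. The basal-sort library was not used in any comparison.

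Named are the 14 genes per direction with the largest change (6 for the difference between cell classes) past the threshold, without overlap of mice and with at least 20 CPM on average, leaving out the gate genes, markers of other classes, ribosomal and mitochondrial genes and unnamed gene models; up to 5 genes per list with at least 10 CPM; and members a list turns on. A few genes that meet these rules are not reported here. Genes of the Calcb-carrying cells were picked by their ratio. Members, lists and tests were chosen with earlier results of these data known. Floors (3 counts) and shares cover counting error only. Motifs were searched in RefSeq windows (GRCm38.p6); that of Calcb was not used here. The closing section gives the alternatives.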

Additional observations from a re-analysis of the deposited data

Results flagged for a closer look

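For 11 named genes the irradiation effect differed between ionocyte-gated and granular duct cells of the same mice, by the interaction test. The log2 change was more positive in ionocyte-gated cells for Ccn2 (by 3.47), Hspa1a (2.16), Hspa1b (2.04), Selenbp1 (1.91) and Ccn1 (1.70). It was more negative for Ccnd1 (-3.09), Hp (-2.49), Tcea3 (-2.43), Gsn (-2.43), Ifi27l2a (-2.33) and Nedd4l (-2.25). Hspa1a and Hspa1b were lower in irradiated mice in both classes, with means of 20.5 and 18.1 CPM in irradiated and 574 and 199 CPM in untreated granular duct cells. Selenbp1 rose in ionocyte-gated cells (0.76, adjusted p = 0.0157), Ccn1 did not pass there (0.80, adjusted p = 0.111), and both fell in granular duct cells (means of 20.4 and 128 CPM in irradiated, 40.2 and 223 CPM in untreated mice). Ccnd1, Tcea3, Gsn, Ifi27l2a, Hp and Nedd4l rose in granular duct cells (for Ccnd1, Tcea3 and Nedd4l means of 26.7, 16.7 and 59.6 CPM in irradiated, 1.79, 1.98 and 7.69 CPM in untreated mice) and, of these, Gsn, Ifi27l2a and Nedd4l also rose in ionocyte-gated cells. In kallikrein-low cells Nedd4l did not pass (0.27, adjusted p = 0.0677), while Tcea3 (0.49, adjusted p = 0.00489) and Ccn1 (1.43, adjusted p = 0.0188) rose. Hp, haptoglobin, stood at 35.1 CPM in irradiated and 9.48 CPM in untreated granular duct cells and was not called in the gate (-0.68, adjusted p = 0.193), but fell in kallikrein-low cells (-3.24, adjusted p = 0.000613).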

How the results depend on the processing

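Over 131 named genes and 19 other settings, 2301 of 2473 values kept their direction and side of the threshold, 87 kept the direction but no longer passed, 56 newly passed and 29 turned direction; the causes were not tested. Turned were Hp without high Scrublet scores (0.27), Car2 in kallikrein-low cells (-2.25), at equal depth (-1.45) and with limits of 0.3% (-1.89) or 1% kallikrein (-0.68) or 10% mitochondrial UMIs (-0.40), and Mgst1 in kallikrein-low cells (-1.56), at 0.3% kallikrein (-1.26) and at equal depth (-0.40); Pcp4l1 in kallikrein-low cells (-2.53), at equal depth (-2.17), at 0.3% (-2.56) and 1% kallikrein (-0.94), with 10 gate UMIs (-0.36), by hashtag share (-0.013) and without irradiated or untreated mouse 1 (-0.22 and -0.096; with 1 mouse left out -0.22 to 0.33); Fabp5 under the first 6 of these (-1.69, -0.26, -1.65, -0.97, -0.078 and -0.12), with at most 10% mitochondrial UMIs (-0.52) and without irradiated mouse 1 (-0.088; -0.088 to 0.57); and Arg1 (0.31) and Nudt4 (0.36) with at most 10% mitochondrial UMIs, Nudt4 also without irradiated mouse 2 or 3 (0.014 and 0.14; -0.44 to 0.14). Of these genes Mgst1 alone passed in the gate. The count of 2425 genes in the gate became 1410 with mice called by hashtag share, 1235 at equal depth and 1418 with at most 10% mitochondrial UMIs, and ran from 1473 to 2447 with 1 mouse left out; DESeq2 (1962) stayed within 1.5 times. The count of 2182 in kallikrein-low cells became 1216, 1134 and 1207 under the same 3 settings and 1428 with DESeq2, and ran from 1450 to 2167 with 1 mouse left out. The 278 genes that differed from granular duct cells became 693 with kallikrein-low cells and 166 with a granular limit of 10%, and ran from 86 to 281 with 1 mouse left out; the 693 ran from 398 to 688. The share of gated cells turned to -6.1 percentage points (11.2% irradiated, 17.3% untreated) at equal depth, and that of kallikrein-low cells to -3.86. The same hashtag number in both groups pairs no mice (correlations of deviations -0.089, -0.055 and 0.045); with a replicate block 2110 genes passed in the gate and 2073 in kallikrein-low cells. Depth limits genes under about 10 CPM, many of which were not tested in kallikrein-low cells.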
